A study of Homo sapiens with 62 samples.

Results

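A2780 is a human ovarian carcinoma line that carries a gain of the long arm of chromosome 1 (1q). The data described here are the 6 messenger RNA libraries of A2780 clones from which the 1q gain was removed (genotype 1q-loss; clones 2, 5 and 6, with 2 libraries each), out of 62 libraries in the series. They were chosen by their labels and set against the 4 A2780 libraries that keep the gain: 2 of the unmodified line (WT) and 2 of cells with an integrated TK cassette (TK+). TK is a thymidine kinase gene that serves as a negative selection marker. The 1q-loss cells were made with the submitters' ReDACT-NS method, in which cells that have lost a cassette placed on the gained arm are selected. Each clone grew from 1 cell and was not treated further, and all cells were plated a day before extraction. The labels do not say that replicates are separate cultures, so p-values measure only the spread between these libraries, which may be technical, and whether the TK+ cells are 1 clone or several is not given in the sources used here.

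The 10 libraries held 19358338 to 23965475 counts each. Replicate pairs differed by more than sampling noise, with chi-square values of 6.87 to 22 per degree of freedom. The mitochondrially encoded genes took 6.9% to 10.7% of counts and were higher in replicate 1 than in replicate 2 of all 5 pairs, in controls and 1q-loss clones alike. Of 14 ovarian and Müllerian marker genes, 5 had at most 3 counts in every library and 1 reached a mean of 1 CPM (counts scaled to a common library size). The lineage named in the labels is therefore not visible in its own marker genes here. Immune cell markers summed to at most 0.639 CPM per library and endothelial markers to at most 1.5 CPM. Melanocyte markers summed to 51.6 to 144 CPM in controls and 5.73 to 101 CPM in the clones, most of it TYRP1, with means of 97.3 and 44 CPM. None of the 3 melanocyte markers tested passed, and their part in other results was not tested.

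Several genes on 1q have products that bear on growth control. MDM4 binds p53 and holds down its activity. UCK2 is a uridine-cytidine kinase of pyrimidine salvage, MCL1 is a survival member of the BCL2 family, and NCSTN, APH1A and PSEN2 encode parts of gamma-secretase, which cleaves Notch receptors. The transcription factor p53 switches on genes for cell cycle arrest, DNA repair and cell death, among them its own inhibitor MDM2.

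Transcripts from 1q were lower in all 3 clones. The arm shift used here is the median, over the 647 genes of the arm that passed the filter, of each gene's log2 CPM against the control mean, minus the same median over the other autosomal arms. It was -0.54 and -0.57 in the libraries of clone 2, -0.47 and -0.47 in clone 5, and -0.37 and -0.37 in clone 6. The WT libraries lay at 0.01 and 0.01 and the TK+ libraries at -0.02 and -0.01. No 1q-loss library overlapped a control. The mean over the 6 libraries was -0.46 ± 0.08 (SD), or 72.5% of the control level, against 66.7% for 2 copies in place of 3 if transcript followed copy number exactly. The exact permutation test over 6 and 4 libraries gave a two-sided p of 0.00952, the smallest that this design allows, and counts libraries of 1 clone as separate. The clones themselves differed in order, at 68.2% of control in clone 2, 72.2% in clone 5 and 77.3% in clone 6, with gaps wider than the spread within each clone. Against WT alone the shift was -0.48 and against TK+ alone -0.45.

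**Figure D1:**
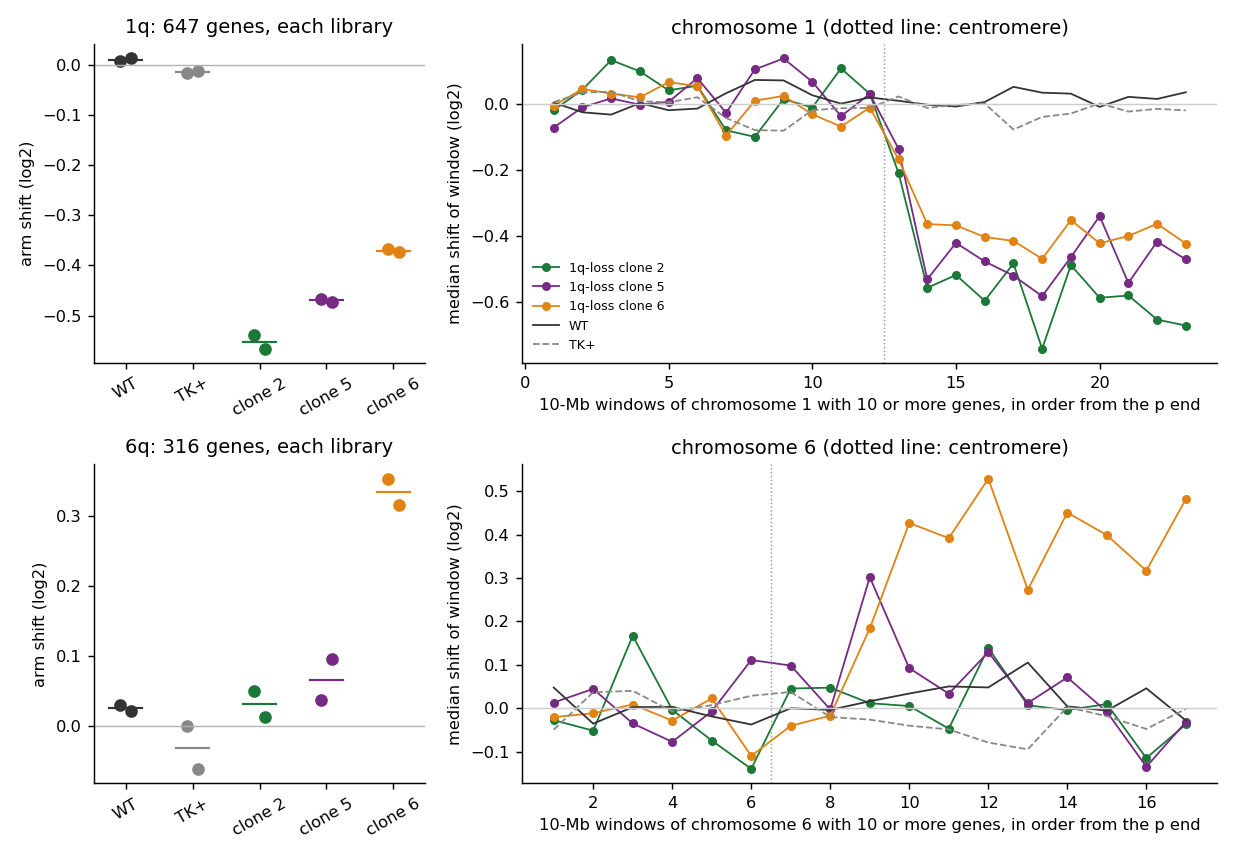
Arm shift of 1q and 6q in each library (left; points are libraries, bars are the mean of 2) and median shift of 10-Mb windows along chromosomes 1 and 6 (right; lines are clone or control means), all in log2 units. All 6 libraries of the 1q-loss clones lie below -0.36 on 1q, and clone 6 lies above 0 from 100 Mb outward on 6q. In the window from 90 to 100 Mb clone 5 lies above clone 6.

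The decrease covered the arm unevenly at its inner end. In the first window past the centromere, from 140 to 150 Mb, the median shift was -0.21 in clone 2, -0.14 in clone 5 and -0.17 in clone 6. From 150 Mb to the end of the arm every window of every clone lay between -0.34 and -0.74. Windows on the short arm lay between -0.10 and 0.14. Genes of 1q did not all move together: 549 of 647 (84.9%) had a fold change below 0, 315 fell and 20 rose at an adjusted p under 0.05. Here and below, a gene is said to have risen or fallen when it passed edgeR's quasi-likelihood test of the 6 libraries against the 4 controls after Benjamini-Hochberg adjustment over 15044 genes. On 1q that is 48.7% of genes lower, 3.09% higher and 51.8% in either direction. Of all 15044 genes, 5.95% rose and 5.88% fell. In such bulk libraries, fewer cells with a transcript and less of it per cell cannot be told apart. The median log2 fold change over them was 0.01.

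UCK2 and MDM4 fell with the arm. UCK2 (chr1:165796768-165880855, GRCh37) stood at 200 and 212 CPM in WT and 219 and 227 CPM in TK+, against 120 and 113 CPM in clone 2, 139 and 136 CPM in clone 5, and 157 and 147 CPM in clone 6. The groups did not overlap, and the log2 fold change was -0.66 ± 0.09 (SE; edgeR adjusted p = 0.00109). MDM4 (chr1:204485511-204542871) stood at 110 and 104 CPM in WT and 101 and 117 CPM in TK+. It read 60.7 and 55.7 CPM in clone 2, 66.8 and 90.2 CPM in clone 5, and 77.7 and 89.2 CPM in clone 6, again with no overlap, for a log2 fold change of -0.55 ± 0.13 (edgeR adjusted p = 0.0215). Its call did not stand without WT replicate 1 (adjusted p = 0.0597), WT replicate 2 (0.0514) or TK+ replicate 2 (0.0652), with the log2 fold change between -0.52 and -0.57. Nor did it stand with WT alone (0.102) or TK+ alone (0.121) as control, or in a limma fit with the clone or control group as a random effect, chosen after seeing the data (limma adjusted p = 0.076). Both genes differed among the clones (edgeR adjusted p = 0.00658 for UCK2 and 0.0207 for MDM4), and clone 2 was the lowest for each. Reads of UCK2 may include those of TMCO1, which overlaps it, since the strand setting of the counting is not given in the sources used here.

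The other 1q genes named above moved less. APH1A fell from 183 ± 12.8 CPM (SD, n = 4) to 134 ± 9.77 CPM (SD, n = 6), a log2 fold change of -0.45 ± 0.07. MCL1 fell from 351 ± 9.58 to 298 ± 13.5 CPM, a log2 fold change of -0.24 ± 0.05 (edgeR adjusted p = 0.0134). Its call was lost with WT alone (0.121) or TK+ alone (0.0734) as control and in the random-effect fit (limma adjusted p = 0.0745). NCSTN and PSEN2 gave log2 fold changes of -0.34 ± 0.08 and -0.33 ± 0.09 (adjusted p = 0.0233 and 0.0323). The call of NCSTN was lost without any one of WT replicate 2, TK+ replicate 1 and TK+ replicate 2 (adjusted p = 0.06 to 0.0747). That of PSEN2 was lost without any one control library and without clone 2 replicate 1, clone 2 replicate 2 or clone 5 replicate 1 (adjusted p = 0.0548 to 0.092). Neither NCSTN nor PSEN2 passed with WT alone (0.177 and 0.108), with TK+ alone (0.0832 and 0.22) or in the random-effect fit (limma adjusted p = 0.12 and 0.0894). NCSTN overlaps COPA.

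A few 1q genes left the range of the arm. FAM129A fell from 5.15 ± 2.85 to 0.302 ± 0.131 CPM, 16.6-fold. KCNT2 and ESRRG fell by 1.48 and 1.43 on the log2 scale against all controls. KCNT2 did not pass against TK+ (edgeR adjusted p = 0.0626), nor ESRRG against WT (0.0952). C1orf21 met the test against all controls (log2 fold change -3.50, edgeR adjusted p = 0.0471), but its TK+ libraries read 0.441 and 0.736 CPM, inside the range of the clones. With TK+ as the sole control its log2 fold change was 0.55 (edgeR adjusted p = 0.816). Each of 7 of the 10 libraries ended the call when left out (WT replicates 1 and 2, clone 2 replicates 1 and 2, clone 5 replicates 1 and 2, and clone 6 replicate 2, with adjusted p = 0.0594 to 0.141). Among called genes with a mean of at least 5 CPM in the higher group, the largest increases on the arm were those of HMCN1 (0.671 ± 0.198 to 6.88 ± 2.82 CPM), BCAN (4.47 ± 1.03 to 15.1 ± 7.62 CPM), DNM3 and GPR137B (2.2 ± 0.445 to 5.95 ± 1.21 CPM). DNM3 lost its call without TK+ replicate 1 (adjusted p = 0.0527) or TK+ replicate 2 (0.0596). DNM3 and BCAN did not pass against WT (edgeR adjusted p = 0.088 and 0.0671), nor BCAN in the random-effect fit (limma adjusted p = 0.073). With TK+ as the sole control BCAN was not called either (edgeR adjusted p = 0.0735). DNM3 overlaps DNM3OS and PIGC, GPR137B overlaps ERO1LB, and BCAN overlaps RP11-284F21.7.

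Clone 6 carried a second change, on distal 6q. Over 41 arms and 3 clones, 4 of 123 combinations lay past 0.2 in both libraries: 1q in each clone, and 6q in clone 6, which was higher by 0.35 and 0.32 over 316 genes. In clone 6 the windows of chromosome 6 from 100 Mb outward lay between 0.27 and 0.53, and the 65 genes of 6q before 90 Mb had a median of -0.05. From 90 to 100 Mb, over 24 genes, clone 5 stood at 0.302 and clone 6 at 0.184. From 100 Mb outward, 121 of 227 genes were higher in clone 6 by the test of that clone, where 9.92% of all genes were. That test called 7.86% of all genes lower in clone 6, 10.4% in clone 5 and 14.2% in clone 2. Clones 2 and 5 had medians of 0.05 and 0.04 over the same genes. Results for genes on distal 6q are therefore given per clone.

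Outside 1q, 875 of 14397 genes rose (6.08%) and 570 fell (3.96%). Against each control group separately, in a fit with WT and TK+ as groups of their own, 756 genes (4.71%) were higher and 794 (4.94%) lower than in WT, 9.65% of 16068 in all. Against TK+, 509 (3.17%) were higher and 500 (3.11%) lower, 6.28% in all. The contrasts share the 6 clone libraries. Genes called in the same direction against both numbered 242 higher (1.51%) and 291 lower (1.81%), 3.32% in all. TK+ and WT differed from each other at 1642 genes (10.2%; 4.63% higher and 5.59% lower in TK+), and the 3 clones differed among themselves at 3772 (23.5%). The clones are 3 and the control populations 2, so libraries were also summed within each, which leaves 5 samples. That fit called 1 gene, MMP10, while 1125 of 17024 genes (6.61%) were higher and 1110 lower at an unadjusted p under 0.05. In the random-effect fit of limma, 672 genes were called, 289 higher and 383 lower. The count against all controls was 983 without WT replicate 1, 983 without WT replicate 2 and 1139 without TK+ replicate 2.

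Many genes that p53 is known to switch on were raised. Of 35 tested, 23 rose and 1 fell, where 5.95% of all genes rose and 5.88% fell. Against WT and against TK+ separately 15 of the 23 also rose, where 1.51% of all genes did. The list's median log2 fold change was 0.61, and its medians per clone were 0.73, 0.46 and 0.67 in clones 2, 5 and 6. The 35 genes had a median of -0.15 in TK+ against WT. In 23 of the 35 all 6 clone libraries lay above all 4 controls, where 6.43% of all genes did. With 1 library left out, 20 to 23 members were called higher, and the random-effect fit called 18. In the summed fit none passed, and 23 of 35 (65.7%) were higher at an unadjusted p under 0.05. The count against both control groups was 6 without WT replicate 1, 7 without WT replicate 2, 6 without TK+ replicate 1 and 4 without TK+ replicate 2. BTG2, FAS, PLK2, JAG1, HES1 and the S phase and G2/M genes given without values lie outside the rule by which genes were named and were chosen after their values were seen.

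**Figure D2:**
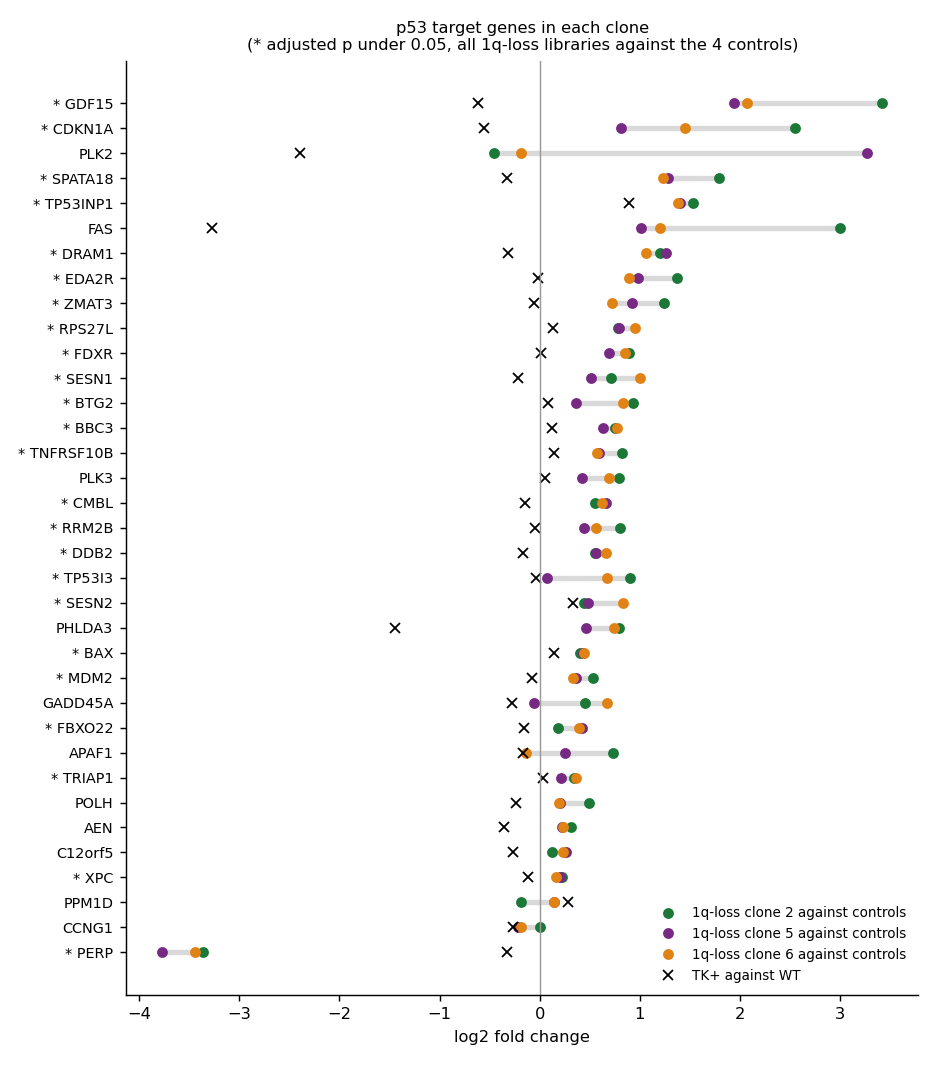
Log2 fold change of each of 35 p53 target genes in each clone against the mean of WT and TK+ (dots) and in TK+ against WT (crosses). Most members lie to the right of 0 in all 3 clones, GDF15 reaches 3.42 in clone 2, and PERP lies between -3.77 and -3.36.

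CDKN1A encodes p21, an inhibitor of cyclin-dependent kinases that halts the cell cycle. It stood at 32.4 and 32.8 CPM in WT and 24.1 and 20.2 CPM in TK+. Clone 2 had 165 and 149 CPM, clone 5 had 51.6 and 43.5 CPM, and clone 6 had 73.4 and 72.7 CPM. Every clone library was above every control, and clone 2 stood far above the other clones (edgeR adjusted p = 2.2e-07 for the difference among clones). The log2 fold change over all libraries was 1.76 ± 0.39 (edgeR adjusted p = 0.0152). It was 1.51 against WT (adjusted p = 0.0933) and 2.06 against TK+ (0.0448), and without TK+ replicate 2 the adjusted p was 0.0516. With WT or TK+ as the sole control CDKN1A was not called (edgeR adjusted p = 0.127 and 0.0743). MDM2, the ubiquitin ligase that degrades p53, rose from 85.4 ± 2.85 to 114 ± 9.74 CPM, a log2 fold change of 0.41 ± 0.07 (edgeR adjusted p = 0.00376), with 123 and 123 CPM in clone 2, 101 and 120 CPM in clone 5, and 107 and 106 CPM in clone 6.

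GDF15, a secreted stress cytokine, had the largest rise of the list: 2.53 to 4.04 CPM in controls, 38.7 and 30.7 CPM in clone 2, 15.4 and 9.62 CPM in clone 5 and 12.8 and 14.3 CPM in clone 6. Members with roles in repair, nucleotide supply and cell death rose by smaller amounts. DDB2, which recognises ultraviolet lesions in DNA, had 23.1 to 29 CPM in controls and 37.7 to 43.5 CPM in the clones. RRM2B, the p53-induced subunit of ribonucleotide reductase, rose by 0.61 ± 0.09 on the log2 scale. Among cell death genes, BBC3 (PUMA) rose from 10.3 ± 1.2 to 16.9 ± 1.63 CPM and BAX from 91.8 ± 5.41 to 123 ± 12.6 CPM. BAX did not pass against TK+ in the fit with 3 groups (edgeR adjusted p = 0.073) or with TK+ as the sole control (0.115). TNFRSF10B, a TRAIL receptor that overlaps RHOBTB2, rose from 101 to 161 CPM. SESN1, a sestrin that restrains mTORC1 signalling, lies on distal 6q, and its log2 fold changes were 0.71, 0.51 and 1.00 in clones 2, 5 and 6. BTG2, an antiproliferative gene that lies on 1q itself, rose against the course of the arm, from 15 to 16.8 CPM in controls to 31 and 30.3 CPM in clone 2, 21.5 and 20.1 CPM in clone 5 and 27.1 and 30.1 CPM in clone 6. TP53INP1, which overlaps NDUFAF6, rose 2.59-fold, and it was also higher in TK+ than in WT (log2 0.89, adjusted p = 6.54e-05).

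PERP, a desmosome protein and p53 target on 6q, went the other way. It read 6.96 and 6.61 CPM in WT, 5.95 and 4.88 CPM in TK+, 0.662 and 0.498 CPM in clone 2, 0.274 and 0.599 CPM in clone 5, and 0.931 and 0.205 CPM in clone 6. Its log2 fold changes were -3.36, -3.77 and -3.44 in clones 2, 5 and 6. Of the 11 members that did not pass the test, FAS gave log2 fold changes of 3.00, 1.01 and 1.21 in clones 2, 5 and 6 and -3.27 in TK+ against WT, and PLK2 gave -0.46, 3.27 and -0.19 and -2.39.

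The p53 motif was looked for in RefSeq promoter windows (GRCh38.p14, 250 bases before to 50 after a transcription start; 28 of the 35 members have one, with 40 windows in all). The motif is 2 half-sites of 10 bases with at most 13 bases between them, and its half-site pattern reads the same on both strands. It is in 10 of 35116 windows (0.0285%), among them that of DDB2, and a single half-site is in 6.63% of all windows and in 7 of the 40. Sequences are shown for DDB2, RPS27L, FDXR and SESN1, which rose, and do not cover all 7 members with a match. AEN, FAS and PLK2 also hold a half-site and are not shown. FAS and PLK2 did not pass the test. The sequences are printed on the gene's strand, 5′ to 3′, with the match in capitals. A match is a description of letters, not a measured binding site.
DDB2 (chr11:47214904-47215003, plus strand, the start site 70 bases in): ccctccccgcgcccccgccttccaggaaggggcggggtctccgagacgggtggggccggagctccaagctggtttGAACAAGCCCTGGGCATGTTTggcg
RPS27L (chr15:63157517-63157546, minus strand): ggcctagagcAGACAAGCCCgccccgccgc
FDXR (chr17:74872986-74873015, minus strand): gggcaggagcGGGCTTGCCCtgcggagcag
SESN1 (chr6:109009018-109009047, minus strand): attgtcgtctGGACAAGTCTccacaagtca
RPS27L, a ribosomal protein paralog, rose from 26.8 ± 2.16 to 48.2 ± 3.45 CPM, and FDXR, a mitochondrial ferredoxin reductase, from 52.2 ± 3.84 to 91.8 ± 8.36 CPM. RPS27L overlaps LACTB.

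Of 24 genes of the S phase list, which serve DNA replication, 9 fell by small amounts, none rose and 15 did not pass, where 5.88% of all genes fell. The 9 were CCNE2, CDT1, E2F1, GINS1, GINS2, MCM2, MCM4, MCM6 and RRM1. MCM2, a subunit of the replicative helicase, stood at 437 to 474 CPM in controls, 346 and 352 CPM in clone 2, 393 and 376 CPM in clone 5, and 365 and 383 CPM in clone 6. Its log2 fold change was -0.30 ± 0.05 (edgeR adjusted p = 0.00517), and it alone of the 9 also fell against WT and TK+ separately, where 1.81% of all genes did. That count of 1 was 0 without any one control library, either library of clone 2 or of clone 6, or clone 5 replicate 2. RRM1, the large subunit of ribonucleotide reductase, fell from 168 ± 5.38 to 138 ± 9.04 CPM. The list's median was -0.20, with -0.30, -0.12 and -0.19 in clones 2, 5 and 6. The count was 4 without WT replicate 1, 2 in the random-effect fit, 4 with WT as the sole control and 0 with TK+ as the sole control. Of 26 genes of the G2 and M phases, 6 fell. ASPM, CENPF, NEK2 and NUF2 of these lie on 1q, and FOXM1 and KIF11 do not. All 4 list members on 1q fell, where 48.7% of 1q genes did. Of the 22 members outside 1q 2 fell, where 3.96% of genes outside 1q did. FOXM1 overlaps RHNO1. The 3 that fell against both control groups, ASPM, CENPF and NUF2, all lie on 1q, where 25.9% of genes did so. This count was 0 without TK+ replicate 2 and 1 without WT replicate 2 or TK+ replicate 1, and the random-effect fit called 3 of the list. ASPM went from 331 ± 20.9 to 198 ± 24.4 CPM and CENPF from 730 ± 39.6 to 463 ± 54.3 CPM.

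Feedback targets of the MAPK pathway, genes switched on quickly by growth factor signalling through ERK, rose in part. Of 19 tested, 10 rose and none fell, where 5.95% of all genes rose, with a list median of 0.40. DUSP6, EGR1, EPHA2, ETV5 and FOSL1 rose against both control groups, where 1.51% of all genes did. This count of 5 was 2 without TK+ replicate 1 and 3 without either WT library, TK+ replicate 2 or clone 2 replicate 2. FOSL1, an AP-1 subunit, stood at 2.49 and 2.91 CPM in WT, 1.63 and 1.29 CPM in TK+ and 12.9 to 18.6 CPM in the 6 clone libraries. No clone library came near a control, and the log2 fold change was 2.87 ± 0.23 (edgeR adjusted p = 7.42e-05). EGR1, an immediate early transcription factor, rose from 20.6 ± 2.46 to 55.6 ± 11.7 CPM. The receptor kinase EPHA2 rose from 72.3 ± 3.02 to 112 ± 2.77 CPM, with log2 fold changes of 0.63, 0.64 and 0.61 in clones 2, 5 and 6. DUSP6, the phosphatase that switches ERK off, had 124 to 138 CPM in controls and 173 to 280 CPM in the clones. The count of 10 became 5 without WT replicate 1 or WT replicate 2 and 6 without clone 6. The random-effect fit called 6, and 3 were called with TK+ as the sole control. DUSP6 and ETV5 were not among these 3 (edgeR adjusted p = 0.0795 and 0.0601).

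Of 27 Notch pathway genes tested, 9 fell, 3 rose and 15 did not pass, where 5.88% of all genes fell and 5.95% rose. Against both control groups 3 of the 9 fell, among them APH1A on 1q, where 1.81% of all genes and 25.9% of 1q genes did. This count was 1 without TK+ replicate 2 and 0 without any one of the other control libraries. With TK+ as the sole control 1 fell and 0 rose. Of the gamma-secretase genes APH1A, NCSTN and PSEN2 fell, all on 1q. The receptor NOTCH3 fell from 368 ± 31.4 to 264 ± 30.7 CPM and the coactivator MAML3 from 15 ± 3.07 to 7.23 ± 1.5 CPM. Both were called against WT and TK+ in the fit with 3 groups, but not in the fit with TK+ alone (edgeR adjusted p = 0.0518 and 0.0716). The ligand JAG1 had 43.0 and 46.6 CPM in WT, 17.8 and 18.2 CPM in TK+, 4.06 and 3.29 CPM in clone 2, and 10.3 to 11.8 CPM in clones 5 and 6. It fell against all controls, and TK+ lay between WT and the clones. HES1, the best known target of the pathway, gave a log2 fold change of 0.07 (edgeR adjusted p = 0.744). Of the list, 5 genes fell without WT replicate 1, 4 without WT replicate 2 and 5 in the random-effect fit. The 3 rises, among them DLL3 and HES6, numbered 1 without WT replicate 1, TK+ replicate 1 or TK+ replicate 2, and 0 without WT replicate 2 and in the random-effect fit.

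**Figure D3:**
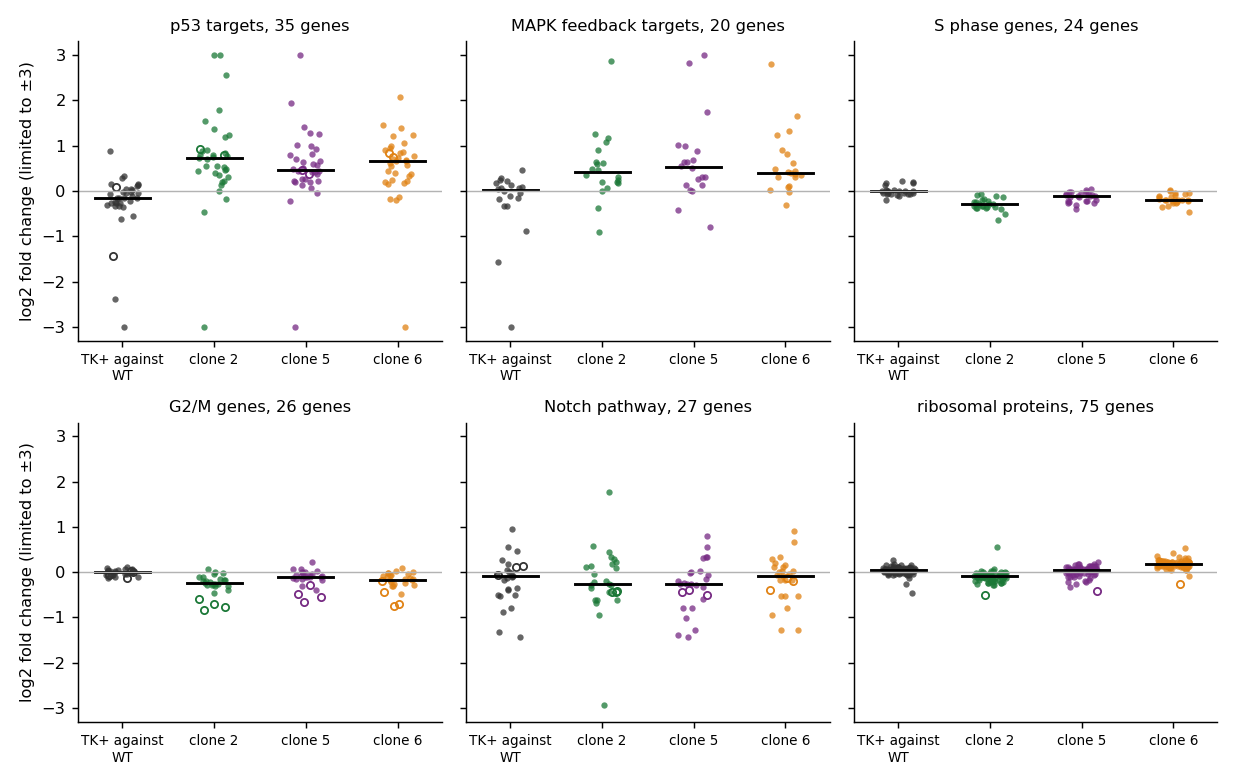
Log2 fold change of every gene of 6 lists in TK+ against WT and in each clone against the mean of the controls (points; open points are genes on 1q; black bars are medians; values past 3 are drawn at 3). The p53 medians lie between 0.46 and 0.73 in the clones, the S phase medians between -0.30 and -0.12, and the ribosomal protein medians between -0.08 and 0.19.

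Other groups moved little or in a few members. None of 75 ribosomal protein genes and none of the 13 mitochondrially encoded genes passed the test, and 1 of 36 complex I genes rose and 1 fell. The 2 of 31 proteasome genes that fell lie on 1q. Among 27 genes of glycolysis and the hypoxia response, 6 rose and none fell, where 5.95% of all genes rose. The random-effect fit did not call ENO2, HK1 or P4HA1 of the 6 (limma adjusted p = 0.0906, 0.0642 and 0.108). Each of these also lost its call on leaving out single control libraries: ENO2 without WT replicate 1, P4HA1 without TK+ replicate 1 and HK1 without any one of the 4 (edgeR adjusted p = 0.0528 to 0.0854). ENO2 overlaps LRRC23. PFKP, the platelet form of phosphofructokinase, rose from 48.8 ± 2.55 to 156 ± 33.3 CPM and was the one of the 6 to rise against both control groups. Of 15 BCL2 family genes tested, BAX, BBC3 and BCL2L13 rose and BCL2, BMF and MCL1 fell, where 5.95% of all genes rose and 5.88% fell. The random-effect fit did not call BAX, MCL1 or BCL2 (limma adjusted p = 0.0773, 0.0745 and 0.249). BCL2 was called through WT alone: its log2 fold change was -3.78 against WT and -0.34 against TK+ (adjusted p = 0.575), and the call was lost without WT replicate 1 (0.0619) or WT replicate 2 (0.0623). Among 17 mesenchymal genes VIM rose and ZEB2 fell, both picked out after their values were seen. These counts are near the shares of all genes, 5.95% higher and 5.88% lower. VIM, an intermediate filament protein, went from 816 to 990 CPM in controls to 1309 to 1682 CPM in the clones. ZEB2 was high in WT alone, at 9.58 and 12 CPM, with 0.661 and 0.828 CPM in TK+ and 0.233 to 0.897 CPM in the clones. The summed level of the list's 18 genes was 1400 to 1680 CPM in controls and 1910 to 2480 CPM in the clones, of which VIM made up means of 903 and 1532 CPM. The other 15 tested members did not pass, and CDH2, SNAI2 and TWIST1 had lower means in the clones than in controls. The summed level of 19 epithelial genes was 77 to 222 CPM in controls and 69.2 to 170 CPM in the clones. KRT8, with a mean of 69.4 CPM in controls and a log2 fold change of -1.98, did not pass (edgeR adjusted p = 0.284). Of 12 epithelial genes tested, 2 rose and none fell: OCLN, with means of 31.8 and 50.8 CPM, and CLDN4, with means of 0.3 and 0.812 CPM, both named after their values were seen.

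Among protein-coding genes with a mean of at least 5 CPM in the higher group, the largest increases outside 1q that were shared by all clones and held against WT and TK+ separately included those of GDNF, ASB5, AGMO, MMP3, UBASH3B, GPR126, PAX6, MMP10, VPS13C and MBP. These calls come from the fit of all 3 groups together. The random-effect fit did not call GDNF, ASB5 or MBP (limma adjusted p = 0.108, 0.124 and 0.168). Fits with 1 control group alone did not call VPS13C and MBP against WT (edgeR adjusted p = 0.0653 and 0.0721) or PAX6 and MBP against TK+ (0.0733 and 0.075). MMP10 and MMP3 are neighbouring matrix metalloproteinase genes on chromosome 11. MMP10 stood at 44.7 and 44.8 CPM in WT, 53.5 and 55.1 CPM in TK+, 432 and 395 CPM in clone 2, 520 and 474 CPM in clone 5, and 464 and 442 CPM in clone 6. That 9.18-fold rise (log2 3.20 ± 0.10, edgeR adjusted p = 4.83e-08) was nearly equal in the clones and passed the summed fit as well, with an adjusted p of 0.014. MMP3 was less even: 3.66 to 11.1 CPM in controls, 90.3 and 87.6 CPM in clone 2, 422 and 417 CPM in clone 5, and 264 and 246 CPM in clone 6.

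GDNF, a neurotrophic growth factor, was nearly silent in controls, at 0.226 and 0.0493 CPM in WT and 0 in both TK+ libraries. It read 14.5 and 15 CPM in clone 2, 7.76 and 8.98 CPM in clone 5, and 1.58 and 1.31 CPM in clone 6. PAX6, a transcription factor of eye and brain development, rose from 12 ± 1 CPM to 103 and 117 CPM in clone 2, 251 and 282 CPM in clone 5 and 35.7 and 38.6 CPM in clone 6. It overlaps RCN1. GPR126, on distal 6q, had 15.9 and 16.6 CPM in clone 6 and was higher in the other clones, at 23.9 to 83.5 CPM.

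By the same rule, the largest shared decreases included those of DNAJC15, SOX9, PCDH19, SLC39A8, PTGER2, PERP, PALLD, EOMES, SCN3A, LRRTM4 and PCDH7. The random-effect fit did not call SLC39A8 or LRRTM4 (limma adjusted p = 0.147 and 0.0695), and the fit with TK+ alone did not call PTGER2, EOMES or LRRTM4 (edgeR adjusted p = 0.0754, 0.0536 and 0.099). DNAJC15, a mitochondrial chaperone of the DnaJ family (chr13:43597339-43683045, GRCh37), had 211 and 149 counts in WT, 289 and 209 in TK+, and 2, 0, 1, 1, 3 and 3 in the libraries of clones 2, 5 and 6. It was the only protein-coding gene with at most 3 counts in every library of one side and at least 30 in every library of the other. Taking 3 counts per library as the floor, it was at least 72.7-fold lower. Its promoter is shown because it marks the one gene found switched off in all 3 clones. The window of 300 bases holds 24 CG pairs, a number reached or passed in 33.9% of all windows. The 150 bases before the start are printed with CG in capitals, and methylation was not measured in these samples.
DNAJC15 (GRCh38.p14 chr13:43023436-43023585, plus strand): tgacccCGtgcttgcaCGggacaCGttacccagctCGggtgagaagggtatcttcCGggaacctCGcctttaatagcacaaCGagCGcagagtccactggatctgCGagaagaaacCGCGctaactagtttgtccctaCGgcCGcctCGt

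Several of the decreases differed between the control groups. PCDH19, a protocadherin on the X chromosome, was level in them, at 22.8 and 21.7 CPM in WT and 15.3 and 19.2 CPM in TK+, against 0.265 to 1 CPM in the clones. EOMES, a T-box factor, likewise had 9.43 to 10.3 CPM in controls and 0.0997 to 2.28 CPM in the clones. SLC39A8, a metal ion transporter, was high in WT alone, with 176 and 180 CPM in WT, 11.8 and 10 CPM in TK+ and 3.38 to 6.7 CPM in the clones. SOX9, PTGER2, PALLD and LRRTM4 were also lower in TK+ than in WT, with 12.3 and 10.3 CPM of SOX9 in WT, 2.86 and 2.39 CPM in TK+ and at most 0.214 CPM in the clones. For these genes TK+ lay between WT and the clones. PALLD overlaps CBR4 and DDX60L.

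**Figure D4:**
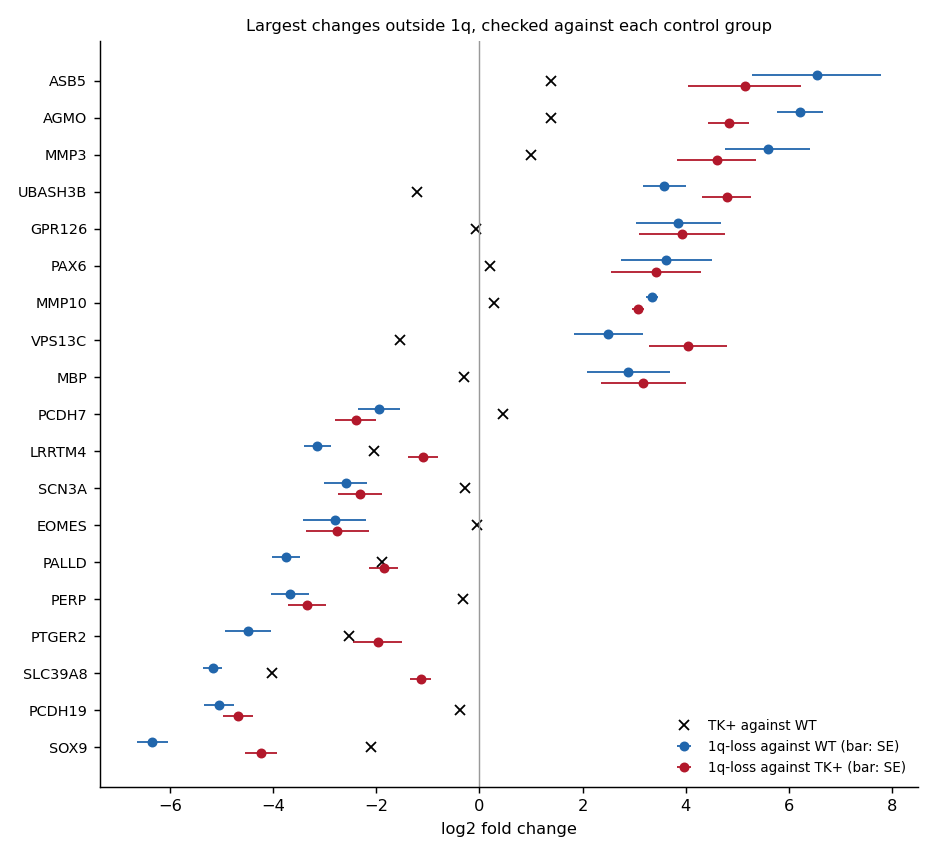
Log2 fold change of the largest shared increases and decreases outside 1q that are named in the text, without GDNF and DNAJC15, which were near 0 counts in a group, against WT and against TK+ (dots with SE), with TK+ against WT (crosses). Both dots lie on 1 side of 0 for each gene, and the crosses show TK+ below WT by more than 2 for PTGER2, SLC39A8, SOX9 and LRRTM4.

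**Figure D5:**
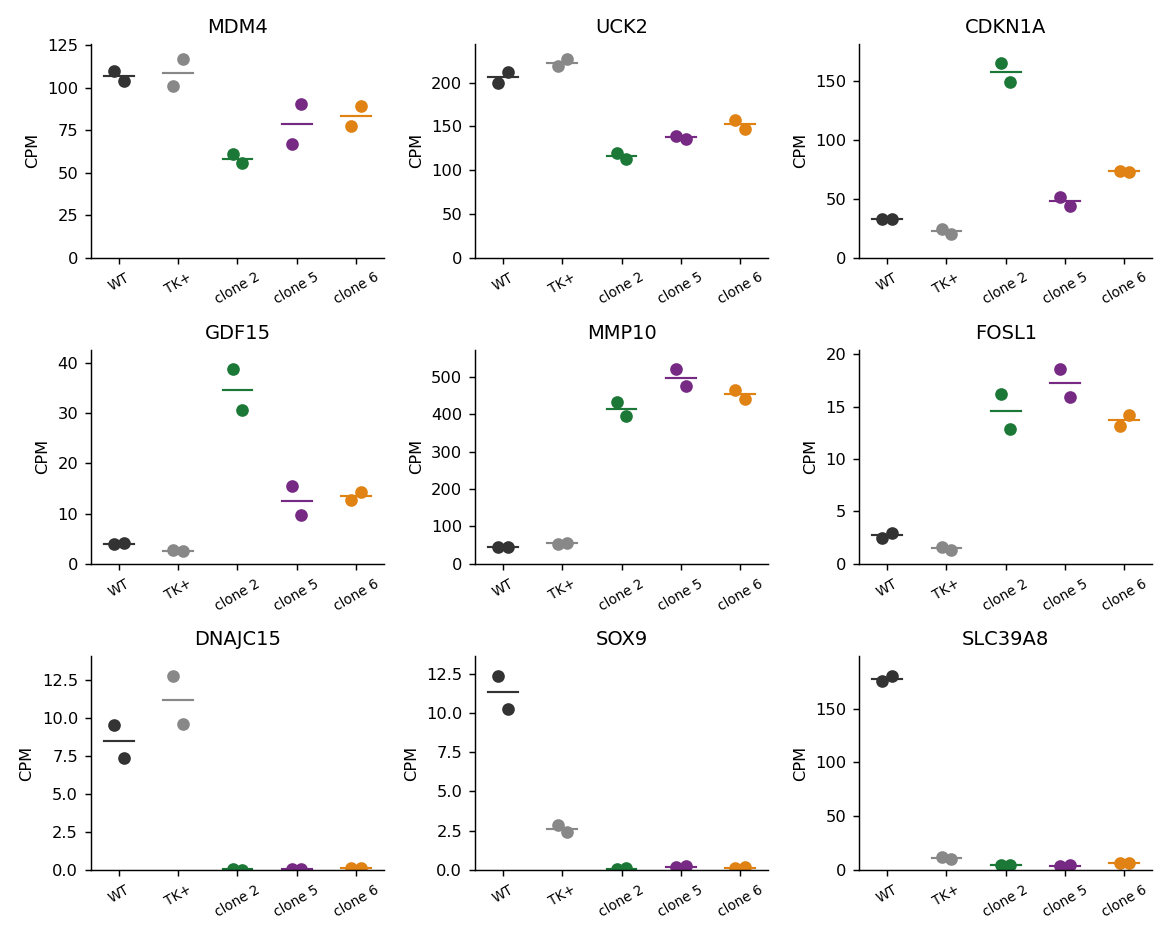
Level of 9 genes in CPM in each library (points) with the mean of each pair (bars), for WT, TK+ and the 3 clones. MDM4 and UCK2 are lower in all clones, CDKN1A and GDF15 are highest in clone 2, and SLC39A8 is high in WT alone, at 176 and 180 CPM.

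Many genes stood apart in 1 clone. Protein-coding genes were counted here when they were called in that clone, differed among clones, were not called in the comparison of all 6 libraries and had both libraries of the clone outside the range of the other 8, with a mean of at least 5 CPM on the higher side. There were 694 higher and 488 lower in clone 2, 238 and 265 in clone 5, and 218 and 130 in clone 6. Of the 218 higher in clone 6, 68 (31.2%) lie on 6q, against 10 of 694 in clone 2 and 5 of 238 in clone 5.

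The homeobox gene ALX4 read 564 and 616 CPM in clone 2 and at most 0.395 CPM in any other library, and the transcription factor gene EBF2 read 67.3 and 68 CPM against at most 0.0855 CPM. PAX9 stood at 127 to 153 CPM in controls, 168 and 171 CPM in clone 5 and 96.3 and 105 CPM in clone 6, but at 0.442 and 0.698 CPM in clone 2. SEMA6D, an axon guidance protein, had 192 to 197 CPM in controls, 55.8 to 60.1 CPM in clones 5 and 6 and 1.28 and 0.947 CPM in clone 2. In clone 5 the neuropeptide gene VIP read 12 and 11.9 CPM against at most 0.395 CPM elsewhere. ARHGAP28 had 90.2 to 146 CPM in controls, 57.7 and 57.8 CPM in clone 2 and 0.411 and 0.641 CPM in clone 5. It was also lower in clone 6, by 5.04 on the log2 scale against controls, so its decrease was not particular to clone 5. In clone 6 the proton-sensing receptor gene GPR65 read 11.4 and 13 CPM against at most 1.06 CPM elsewhere, and the desmosomal cadherin gene DSC2 read 0.605 and 0.492 CPM against 3.44 to 12.9 CPM.

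Interferon-stimulated genes also separated clone 2. Of 28 tested, 5 rose and 2 fell, where 5.95% of all genes rose and 5.88% fell, so the count that fell is near that of all genes. IFITM2, one of the 5, was not called in the random-effect fit (limma adjusted p = 0.0847), and it overlaps IFITM1. By clone, 18 of the 31 in the fit by clone differed among clones, where 23.5% of all genes did. The list's median was 0.52 in clone 2, 0.02 in clone 5 and -0.01 in clone 6. IFIT1, picked out after its values were seen, stood at 11.9 to 22.5 CPM in controls, 149 and 137 CPM in clone 2 and 25.5 to 29.4 CPM in clones 5 and 6. IFI44L fell from 1.54 and 1.58 CPM in WT and 6.74 and 5.98 CPM in TK+ to at most 0.279 CPM in the clones.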

How the data were processed

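Poly-A selected RNA was sequenced, and reads were aligned with HISAT2 2.0.5 and counted with featureCounts 1.5.0-p3, per the submitters' processing notes. The deposited values are raw counts per gene for each library, with no normalization by the authors. Their notes name hg38, but only 261 of the 48162 listed genes share start and end with GENCODE 29 and chromosome 1 runs to 249231242, past its end in GRCh38, so the coordinates are given as GRCh37. Of the listed entries, 0 lacked a gene.

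Genes were filtered with filterByExpr (minimum count 10, minimum total 15), scaled by TMM and tested with edgeR 4.0.16 (R 4.3.3) by quasi-likelihood F-tests with Benjamini-Hochberg adjustment at 0.05. The first fit set the 6 libraries against the 4 controls, the second had 3 groups, and the third had the 3 clones, WT and TK+ as 5 groups. CPM values are on TMM library sizes, and the prior count of the arm shift is 2. Alternatives were DESeq2 1.42.0, limma 3.58.1, other scalings and filters, and samples left out. The scripts were tested on simulated data. Replicate numbers were not taken as pairs.

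Genes were named by rule: MDM4, UCK2, MCL1, NCSTN, APH1A, PSEN2, CDKN1A and MDM2 in any case; the 12 largest changes each way outside 1q held against both control groups and in 1 direction in every clone at 5 CPM or more; 6 decreases and 4 increases on 1q; 3 each way per clone; up to 4 members and all held against both groups from lists with 3 or more calls; and genes switched on or off. The members and lists were chosen with earlier results of these data known. Lists not described in the report had at most 4 members called in a direction. For genes named by the rule, overlapping genes are given where the other held at least 10% of the gene's counts. Some genes that meet the rule are not reported here.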

Additional observations from a re-analysis of the deposited data

Results flagged for a closer look

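Among the genes named by rule and the shifts of 1q and 6q, 248 sets of 4 controls or 6 clone libraries were checked for a library far from the rest, and 5 stood out. Chance flags about 1 in 20 such sets. APH1A read 202 CPM in TK+ replicate 1 and 174 to 178 CPM in the other controls. BBC3 read 13.8 CPM in clone 5 replicate 2 and 16.8 to 18.1 CPM in the other clone libraries, and FDXR in the same library read 75.1 CPM against 91.8 to 96.9 CPM. LRRTM4 read 1.59 CPM in clone 2 replicate 1 and at most 0.913 CPM in the other clone libraries. SNX31 read 0.0881 CPM in TK+ replicate 1 and 0 in the other controls.

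Expression differed among the clones, by edgeR's test of that difference, for 4 of the 8 genes named in any case: MDM4 (adjusted p = 0.0207), UCK2 (0.00658), PSEN2 (0.0331) and CDKN1A (2.2e-07). By the same test 3772 of 16068 genes (23.5%) differed among the clones.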

How the results depend on the processing

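The 1q arm shift lay between -0.48 and -0.44 over the libraries left out in turn, and at -0.22 with no filter. Against WT alone (-0.477) or TK+ alone (-0.445), 2 libraries against 6 could not reach a p under 0.05. Of 104 named genes called, 83 kept their call without any 1 library and 48 under all alternatives but the summed libraries, which kept 1, MMP10. Counts of genes called moved as follows. Leaving out 1 library gave 983 to 1800 against all controls (1780 with all), 373 to 1698 against WT, 122 to 1047 against TK+, 94 to 562 against both in 1 direction and 2427 to 4444 among clones. The lowest counts against WT (373) and against TK+ (122) came without WT replicate 2 and TK+ replicate 2, each leaving that control with 1 library assumed to vary like the other groups. The lowest among clones (2427) came without clone 2 replicate 2. Without clone 2 altogether, 1532 genes were called against TK+, 806 against both and 1284 among clones. DESeq2 called 1758 against TK+ and 899 against both. Summed libraries called 1, the random-effect fit 672 and TK+ controls alone 667. TCF24, not called with all libraries, had a log2 fold change of -2.80 without clone 5, and C1orf21 one of 0.547 against TK+ alone. The replicate numbers were checked as pairs: deviations of same-numbered libraries correlated from -0.178 to 0.317 over 10 pairs of groups, above 0.1 in the 6 pairs among WT, TK+, clone 2 and clone 5 and below 0 in the 4 with clone 6. Since not every pair was above 0.1, the numbers were not taken as pairs, though the 6 pairs deviate together. With the replicate block, 1550 genes were called against all controls, 1360 against WT and 815 against TK+. Among named genes called, C1orf21 alone lost its call under it (adjusted p = 0.0675). Genes under about 10 counts were not tested, and changes under the spread of 2 to 6 libraries could not be seen. The effect of the clones' separate growth from single cells cannot be told apart from that of the arm.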
